A study of Homo sapiens with 4 samples.

Results

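The 58 genes listed here are protein-coding genes of the outer short arm of chromosome 7, bands 7p22 to 7p15, from PRKAR1B at the outer end to SNX10 next to the HOXA genes. They were picked as a region because its genes were lower in acute lymphoblastic leukaemia (ALL) lines with the translocation t(4;11), so that their group differences are given as a description and without a test. A level was measured for 55 of the 58 among 18377 genes on the arrays, each from the probe set with the highest mean over the lines. AIMP2 and KDELR2 are not analysed here, and TOMM7 shares its probe set with another gene and is not reported. The values are log2 expression levels from Affymetrix whole-transcript arrays, so that a difference of 1 is a doubling, with 1 array for each of 4 established lines of human precursor B-cell ALL. All were cultured in RPMI with fetal bovine serum to sub confluency. RS4;11 and SEM carry t(4;11), in which the MLL gene (KMT2A) is rearranged, and are referred to below as the translocation lines. The comparison lines, NALM6 and REH, are precursor ALL lines that lack it. Each line stands for 1 patient's leukaemia, so that a difference between the groups is a difference between these lines, whatever else sets them apart.

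The short arm of chromosome 7 carries genes of many unrelated functions, among them the cytoskeletal actin gene ACTB, the small GTPase gene RAC1 and the cytochrome c gene CYCS, and further inward the HOXA cluster and IKZF1. Neighbours along a chromosome arm share no pathway, but genes of an arm are gained or lost together when the arm itself is. Loss of the short arm, by deletion or through an isochromosome of the long arm, is a recurrent lesion of B-cell precursor ALL. DNA was not measured on these arrays. Bulk RNA does not separate less RNA per cell from fewer cells that express a gene.

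The labelled cell type was checked against markers. Of 9 B-cell precursor markers 7 were measured, and 5 lay above the median level of all genes (6.78) in all 4 lines. The exceptions were the surrogate light chain gene VPREB1 in REH (5.51) and the surface antigen gene CD24 in SEM (6.33). All 5 T cell markers lay below that median in every line. Of 5 monocyte and granulocyte markers none lay above it in all lines, with LYZ between 5.80 (REH) and 9.65 (NALM6) and MPO at 7.57 in REH alone. Of 3 stromal markers COL1A1 and COL3A1 lay below that median in every line. The third, PECAM1, stood at 9.51 in SEM and at most 6.04 elsewhere. The 2 measured erythroid markers of 3 listed also lay below that median in every line. The part of these marker differences in the results below was not tested.

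Most genes of the region were lower in both translocation lines, by amounts that resembled each other. The median level over the 55 genes was 8.35 in RS4;11 and 8.40 in SEM, against 9.01 in NALM6 and 9.12 in REH. The median difference between the groups (mean of RS4;11 and SEM minus mean of NALM6 and REH) was -0.66, a 1.58-fold lower level, against 0.01 over all 18377 genes. In 42 of the 55 genes both translocation lines lay below both comparison lines, and over all genes this held for 19.8%. Since the region was chosen by this contrast, nothing is read from that excess. In 18 genes the groups were parted by at least 1.5-fold in this direction, against 2.17% of all genes. All 18 were among the 50 members above the median level of all genes, where the background was 3.32%. Here and below, a gene lies above that level by its mean over the 4 lines, so that a single group can carry it. GPR146 and GPER1 passed through NALM6 and REH alone, and SNX10 and TWIST1 through RS4;11 and SEM alone. Counts over genes above the median level therefore rest in part on the contrast itself. The reverse order was seen in 5 genes, FSCN1, TWIST1, SNX10, ICA1 and ACTB, against 23% of all genes, and in 2 of these the groups were parted by at least 1.5-fold (2.12% of all genes and 2.78% of those above the median level). The order of ACTB depends on the scaling, as given below. The groups overlapped in the remaining 8, namely ADAP1, CHST12, TTYH3, GNA12, TNRC18, AHR, HDAC9 and OSBPL3.

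**Figure D1:**
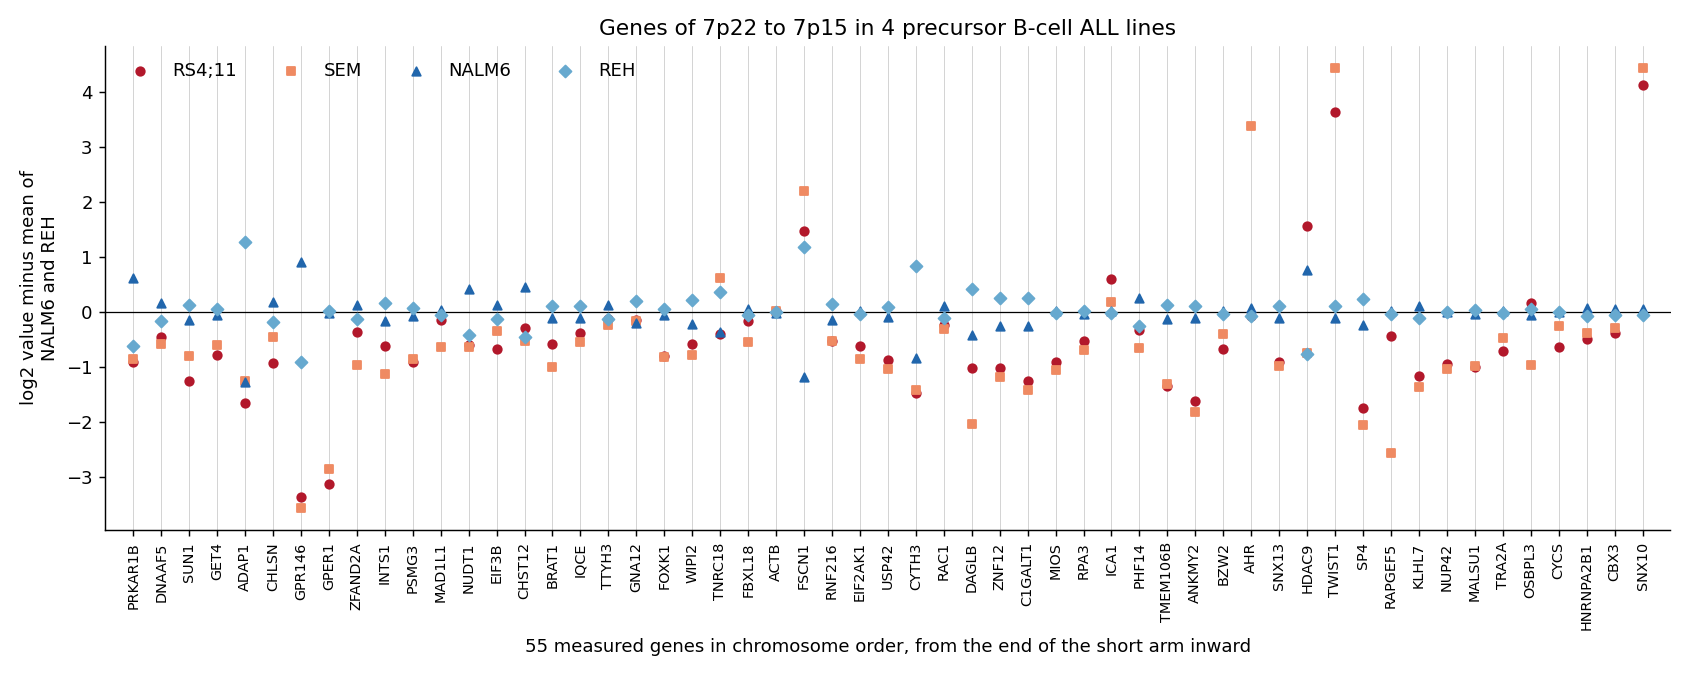
Log2 level of each of the 55 measured genes minus the mean of NALM6 and REH (vertical axis), in chromosome order from the outer end of the short arm inward (horizontal axis), with 1 point per line and gene. The points of RS4;11 and SEM lie below 0 for 48 genes each, mostly by 0.3 to 1.2, and a few genes such as TWIST1 and SNX10 stand far above.

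The differences were narrow in range for most genes and wide for a few. For 33 of the 55 genes the difference lay between -1.2 and -0.3, for 11 it was below -1.2, for 3 it lay between -0.3 and 0, and for 8 it was above 0. The 47 genes below 0 compare with 47.1% of all genes below 0. The central part of the distribution ran from -0.99 (25th percentile) to -0.40 (75th percentile), against -0.14 to 0.16 for all genes. The median standard error (SE) of a difference, from a limma fit over all genes, was 0.17 over the members. By mean level of the gene, the median difference was -0.61 in the 19 dimmest, -0.84 in the middle 18 and -0.63 in the 18 brightest members. Of the members, 50 lay above the median level of all genes (median difference -0.67) and 5 at or below it (-0.36). Of the 50, 44 had a difference below the median of all genes, against 50.1% of all genes above the median level.

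Each translocation line was also set against the mean of NALM6 and REH, a pair of comparisons that share their comparison lines. The median over the members was -0.62 for RS4;11 (1.54-fold lower) and -0.74 for SEM (1.67-fold lower). A value below 0 was found for 48 of 55 genes in RS4;11 and for 48 in SEM, against 46.3% and 49.9% of all genes. SEM was the lowest of the 4 lines for 29 genes and RS4;11 for 19, NALM6 for 4 and REH for 3. Over all genes the lowest line was SEM for 24.5%, RS4;11 for 19.9%, NALM6 for 21.9% and REH for 33.7%. The highest line was REH for 25 genes, NALM6 for 21 and a translocation line for 9, against 25%, 25% and 50% of all genes.

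Neighbouring genes that start from opposite strands of a short shared stretch of DNA give a close view of this pattern. In the RefSeq promoter table (GRCh38.p14), which holds 44 of the 58 genes, 2 pairs of members start head to head within 1000 bases of each other. HNRNPA2B1 and CBX3 start 697 bases apart, and ANKMY2 and BZW2 start 427 bases apart. The 250 bases before the start of each are shown with those of GPER1, among the lowest differences of the region, and SNX10, among the highest, 5′ to 3′ and with each CG in capitals. For GPER1 and SNX10, with several starts, the outermost start is shown.
HNRNPA2B1, chr7:26200747-26200996, minus strand: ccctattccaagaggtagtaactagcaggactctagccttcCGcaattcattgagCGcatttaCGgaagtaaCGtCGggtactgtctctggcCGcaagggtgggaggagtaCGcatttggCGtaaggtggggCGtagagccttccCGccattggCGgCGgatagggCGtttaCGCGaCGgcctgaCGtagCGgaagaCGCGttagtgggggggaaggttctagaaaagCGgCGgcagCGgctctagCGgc
CBX3, chr7:26201193-26201442, plus strand: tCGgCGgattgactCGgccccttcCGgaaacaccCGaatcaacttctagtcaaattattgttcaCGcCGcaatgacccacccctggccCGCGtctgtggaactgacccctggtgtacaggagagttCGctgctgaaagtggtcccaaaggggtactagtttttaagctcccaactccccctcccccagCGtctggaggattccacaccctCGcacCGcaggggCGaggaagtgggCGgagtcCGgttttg
ANKMY2, chr7:16645755-16646004, minus strand: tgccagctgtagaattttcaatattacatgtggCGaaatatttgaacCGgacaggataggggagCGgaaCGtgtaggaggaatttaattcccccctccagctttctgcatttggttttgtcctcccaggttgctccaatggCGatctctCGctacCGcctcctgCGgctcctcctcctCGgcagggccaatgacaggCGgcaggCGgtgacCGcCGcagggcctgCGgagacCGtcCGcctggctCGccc
BZW2, chr7:16645931-16646180, plus strand: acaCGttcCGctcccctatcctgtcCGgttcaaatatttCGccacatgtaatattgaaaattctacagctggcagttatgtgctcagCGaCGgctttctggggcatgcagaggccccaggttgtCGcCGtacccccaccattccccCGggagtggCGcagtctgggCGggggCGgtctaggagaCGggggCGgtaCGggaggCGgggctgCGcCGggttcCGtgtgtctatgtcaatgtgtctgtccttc
GPER1, chr7:1086868-1087117, plus strand: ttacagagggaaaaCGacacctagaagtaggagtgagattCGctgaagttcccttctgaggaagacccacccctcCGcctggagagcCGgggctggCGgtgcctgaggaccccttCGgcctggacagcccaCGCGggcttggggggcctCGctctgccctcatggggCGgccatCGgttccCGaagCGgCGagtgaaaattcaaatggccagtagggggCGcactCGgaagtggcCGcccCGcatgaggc
SNX10, chr7:26291612-26291861, plus strand: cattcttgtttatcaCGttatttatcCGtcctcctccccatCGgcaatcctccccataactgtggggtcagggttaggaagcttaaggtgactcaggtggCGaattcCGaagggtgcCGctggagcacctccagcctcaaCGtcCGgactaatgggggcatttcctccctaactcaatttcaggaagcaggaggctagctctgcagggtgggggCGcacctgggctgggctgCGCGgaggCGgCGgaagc

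The windows held 24 CG pairs for HNRNPA2B1, 16 for CBX3, 17 for ANKMY2, 19 for BZW2, 18 for GPER1 and 13 for SNX10. The median was 22 over the 44 members in the table and 17 over 15842 protein-coding genes. The GC box letters GGGCGG, read on either strand, stood in 32 of the 44 member windows (72.7%, against 55.8% of all protein-coding windows) and the ETS letters CCGGAAG in 9 (20.5%, against 11.8%). CCAAT stood in 17 (38.6%, against 34.5%) and TATAAA in 1 (2.27%, against 9.36%). None of these motifs contains another, and a match describes only the letters. The 15842 genes were not matched to the members in level, so that these shares are not read as traits of the region. Among the 6 genes shown, the number of CG pairs did not follow the size of the difference: GPER1 and BZW2 held 18 and 19 and differed between the groups by -2.98 and -0.53.

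The partners of a head-to-head pair did not always differ by the same amount. HNRNPA2B1, which encodes an RNA-binding protein of splicing and transport, was at 11.78 (RS4;11), 11.89 (SEM), 12.35 (NALM6) and 12.20 (REH). CBX3, which encodes the heterochromatin protein HP1 gamma, was at 9.38, 9.46, 9.81 and 9.69 in the same order. Both were lower in both translocation lines, by similar amounts (-0.44, SE 0.11, and -0.33, SE 0.10). ANKMY2, whose product has ankyrin repeats and a MYND zinc finger, was at 7.61, 7.40, 9.11 and 9.33. BZW2, which encodes a regulator of translation initiation, was at 10.68, 10.95, 11.37 and 11.32. Their groups did not overlap either, but the difference was -1.72 (SE 0.15) for ANKMY2 and -0.53 (SE 0.14) for BZW2. Numbered pseudogenes exist for 12 of the members (10 for CBX3, 45 for CYCS, 14 for ACTB, 9 for RAC1), and signal from such near-identical copies cannot be told apart here.

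Genes of translation and RNA handling shared 1 direction. All 8 measured genes were lower in both translocation lines, with a median difference of -0.66 and a range from -0.99 to -0.44. That order held for 19.8% of all genes. It held for 73.1% of short-arm genes above the median level, members included. This count and those of the roles below are therefore not read as traits of a role. NUP42, a nucleoporin gene of messenger RNA export, was at 8.51 (RS4;11), 8.40 (SEM), 9.44 (NALM6) and 9.45 (REH) (difference -0.99, SE 0.09). MALSU1, whose product assists assembly of the large mitochondrial ribosomal subunit, was at 9.24, 9.26, 10.20 and 10.27 (-0.99, SE 0.09). In both genes the lines of a group stood close together and the groups well apart. EIF2AK1, the haem-regulated kinase of translation factor eIF2, was at 10.63, 10.40, 11.28 and 11.22, and the Integrator subunit gene INTS1 at 8.47, 7.96, 8.92 and 9.25. EIF3B, a subunit gene of translation factor eIF3, was at 9.55, 9.88, 10.35 and 10.08 (-0.50, SE 0.18). The splicing factor gene TRA2A was at 10.76, 11.01, 11.49 and 11.46 (-0.59, SE 0.13), again with the groups apart. A further probe set of TRA2A gave -0.91, in the same direction.

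The ubiquitin and proteasome genes followed the same order. All 6 were lower in both translocation lines, with a median of -0.77. KLHL7, a substrate adaptor of a cullin ubiquitin ligase, was at 7.89 (RS4;11), 7.68 (SEM), 9.16 (NALM6) and 8.93 (REH) (-1.26, SE 0.14). USP42, a deubiquitinase, was at 8.72, 8.55, 9.49 and 9.68 (-0.95, SE 0.13), and PSMG3, a chaperone of proteasome assembly, at 8.45, 8.51, 9.28 and 9.44 (-0.89, SE 0.11). The groups were parted clearly in these genes. They lay closer together in the ubiquitin ligase gene RNF216 (8.33, 8.33, 8.70 and 9.001). In the F-box gene FBXL18 (6.69, 6.30, 6.91 and 6.80) RS4;11 came close to REH. ZFAND2A, an arsenite-inducible partner of the proteasome, was at 9.14, 8.52, 9.61 and 9.37, with SEM lowest.

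Among the DNA repair and mitosis genes all 4 were lower, with a median of -0.61, and none was parted by 1.5-fold. RPA3, the small subunit of the single-strand binding protein RPA, was at 6.87 (RS4;11), 6.72 (SEM), 7.38 (NALM6) and 7.43 (REH) (-0.61, SE 0.10). BRAT1, a partner of BRCA1 and ATM, was at 6.52, 6.10, 7.005 and 7.22 (-0.80, SE 0.20). NUDT1, which cleans oxidised nucleotides from the pool, was at 7.50, 7.47, 8.52 and 7.68, so that NALM6 stood apart and REH lay near the translocation lines. The spindle checkpoint gene MAD1L1 was at 7.70, 7.22, 7.89 and 7.80, where RS4;11 lay near REH.

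Genes of membrane traffic, lysosome and lipid handling had a median difference of -0.68 over 12 genes, with 7 lower in both translocation lines and 2 higher. TMEM106B, a lysosomal membrane protein gene, was at 9.28 (RS4;11), 9.32 (SEM), 10.50 (NALM6) and 10.75 (REH) (-1.33, SE 0.13). C1GALT1, the galactosyltransferase of core O-glycans, was at 8.59, 8.43, 9.59 and 10.10 (-1.34, SE 0.22). MIOS, a part of the GATOR complex that controls mTORC1, was at 9.07, 8.93, 10.00 and 9.97 (-0.99, SE 0.10). DAGLB, a diacylglycerol lipase gene, was at 9.60, 8.58, 10.20 and 11.03, with SEM lowest and REH highest (-1.52, SE 0.52). In all 4 of these genes both translocation lines were low. The same held for the sorting nexin gene SNX13 (-0.94, SE 0.13), for GET4 of tail-anchored protein insertion (-0.69, SE 0.11) and for the autophagy gene WIPI2 (-0.68, SE 0.21). The groups overlapped in the chondroitin sulfotransferase gene CHST12 (7.98, 7.74, 8.71 and 7.81), where NALM6 alone was high, and in the chloride channel gene TTYH3 (9.13, 9.02, 9.37 and 9.13). SNX10, which encodes a sorting nexin of the endosome and osteoclast, went the other way, at 8.97 and 9.28 in RS4;11 and SEM against 4.91 and 4.78 in NALM6 and REH. The difference was 4.28 (SE 0.15) on the deposited scale. No fold is given, since both comparison lines lay below the 25th percentile of the arrays (4.97 to 5.02) and no detection call was used here. ICA1, an islet cell autoantigen gene, was dim in every line (5.39, 4.98, 4.81 and 4.77).

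Receptor and signalling genes held the lowest differences of the region. GPR146, a G-protein-coupled receptor gene, was at 5.53 (RS4;11), 5.34 (SEM), 9.80 (NALM6) and 7.97 (REH), an 11.0-fold lower level (difference -3.46, SE 0.72). GPER1, the G-protein-coupled oestrogen receptor gene, was at 5.38, 5.65, 8.48 and 8.51, 7.89-fold lower (-2.98, SE 0.13). Both were high in both comparison lines and close to the dim end of the array in the translocation lines. Both genes lie within the span of CHLSN, which encodes the gut hormone cholesin and was at 6.83, 7.30, 7.93 and 7.56, lower by less (-0.68, SE 0.25). PRKAR1B, a regulatory subunit gene of protein kinase A, was at 6.34, 6.40, 7.86 and 6.64, with only NALM6 far above the rest. The G-protein subunit gene GNA12 was at 9.07, 9.04, 9.01 and 9.40, and its groups overlapped. IQCE, a ciliary gene of Hedgehog signalling, was at 6.76, 6.59, 7.03 and 7.25 (-0.47, SE 0.14), without overlap. In all, 11 members overlap another protein-coding gene on the genome, as PRKAR1B does DNAAF5, and the arrays' probes were not separated further.

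Cytoskeleton and small GTPase genes had a median difference of -0.77 over 8 genes, 5 of them lower in both translocation lines. SUN1, which ties the nuclear lamina to the cytoskeleton, was at 8.21 (RS4;11), 8.67 (SEM), 9.33 (NALM6) and 9.61 (REH) (-1.03, SE 0.22). RAC1 was at 8.97, 8.91, 9.32 and 9.10, in the same order but by less (-0.27, SE 0.12). DNAAF5, an assembly factor gene of axonemal dynein, was at 8.85, 8.72, 9.47 and 9.13 (-0.52, SE 0.16). The low averages of the guanine nucleotide exchange gene CYTH3 (7.23, 7.29, 7.86 and 9.54) and of the Arf GTPase-activating gene ADAP1 (4.63, 5.02, 5.005 and 7.55) came mainly from a high REH. That of RAPGEF5, an exchange factor gene for Rap GTPases, came mainly from a low SEM (7.22, 5.10, 7.68 and 7.63). ACTB was nearly equal in all lines, at 12.84, 12.85, 12.82 and 12.84. Its difference of 0.01 (SE 0.08) turned to -0.03 after repeated quantile normalization and to -0.04 with arrays centred on their medians, and it was the only member whose sign depended on the scaling. FSCN1, an actin-bundling gene, was at 8.35 and 9.07 in the translocation lines, 8.05 in REH and 5.69 in NALM6.

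Chromatin and transcription genes were mixed, with 5 of 9 lower in both translocation lines and a median difference of -0.33. SP4, a zinc finger factor of GC boxes, was at 9.08 (RS4;11), 8.77 (SEM), 10.58 (NALM6) and 11.05 (REH), 3.71-fold lower (-1.89, SE 0.23). FOXK1, a forkhead factor gene, was at 8.16, 8.14, 8.90 and 9.01 (-0.80, SE 0.09), and the zinc finger gene ZNF12 at 8.34, 8.19, 9.11 and 9.62 (-1.10, SE 0.22). The PHD finger gene PHF14 was at 10.18, 9.86, 10.75 and 10.26, with RS4;11 close to REH. TWIST1, a basic helix-loop-helix factor of mesenchymal cells, opposed them, at 9.44 and 10.25 against 5.71 and 5.92, a 16.3-fold higher level (4.03, SE 0.33). AHR, the aryl hydrocarbon receptor gene, was high in SEM alone (8.15, with 4.71 in RS4;11, 4.84 in NALM6 and 4.71 in REH). HDAC9, a class IIa histone deacetylase gene, was high in 1 line of each group, RS4;11 (9.03) and NALM6 (8.22), and at 6.72 in SEM and 6.71 in REH. The 4 probe sets of TNRC18 gave differences between 0.02 and 0.19, with SEM and REH above RS4;11 and NALM6 in each.

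The last genes were the cytochrome c gene CYCS, at 8.47 (RS4;11), 8.85 (SEM), 9.11 (NALM6) and 9.12 (REH) (-0.45, SE 0.17), with ANKMY2 and CHLSN given above. All 3 were lower in both translocation lines.

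**Figure D2:**
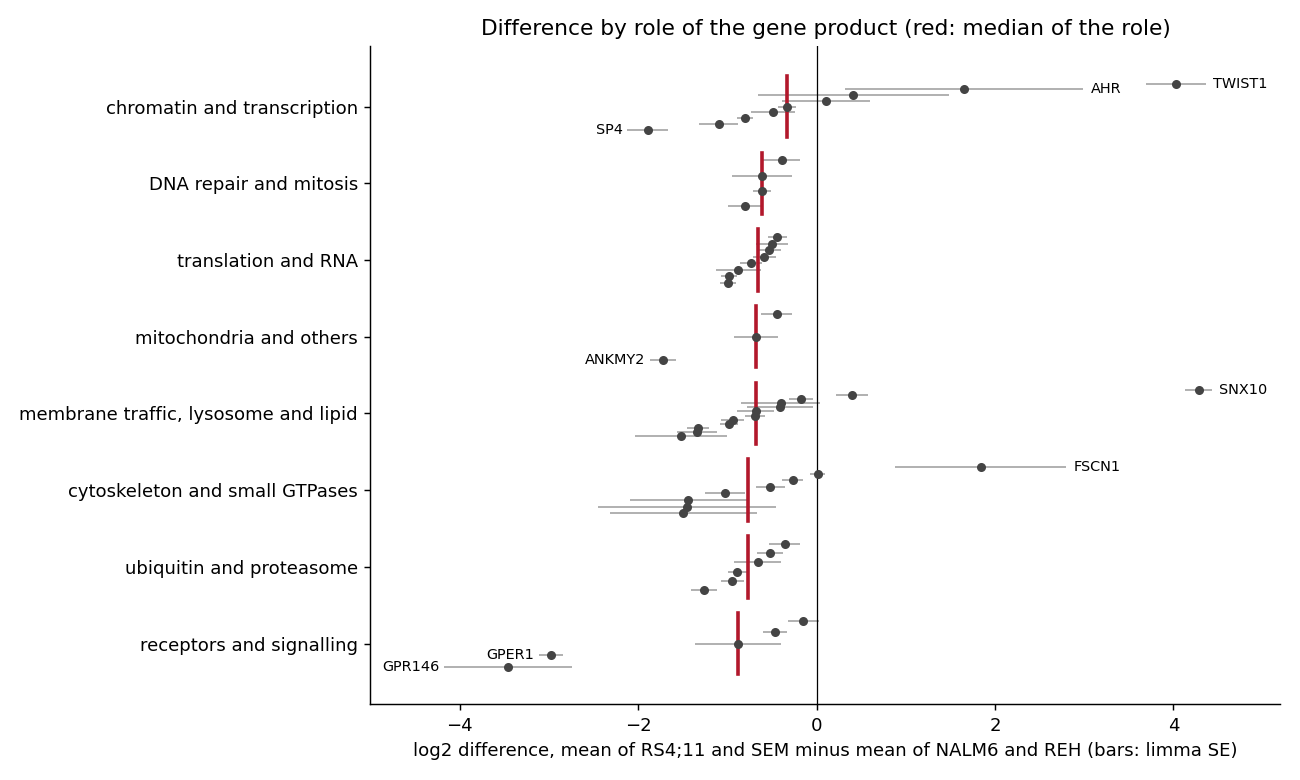
Difference between the groups on the log2 scale for each measured gene (points, with the limma SE as bars), by role of the gene product, with the median of each role as a red line. All 8 role medians lie below 0, from -0.88 for receptors and signalling to -0.33 for chromatin and transcription, and SNX10 and TWIST1 stand alone above 4.

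Differences between lines of the same group were not used to choose the region, and with 1 array per line they have no test. Shares over all genes were not counted for the cutoffs of 0.5 and 1 used here. RS4;11 and SEM differed by under 0.5 in 45 of the 55 genes and NALM6 and REH in 43, with medians of 0.07 (RS4;11 minus SEM) and -0.02 (NALM6 minus REH). The median size of the difference without its sign was 0.21 and 0.23, against 0.15 and 0.17 over all genes. Over genes above the median level it was 0.20 and 0.26. The members were thus no closer within a group than all genes. The 50 members above the median level stood at 0.20 and 0.23, so that NALM6 and REH were slightly closer there than over all genes above that level. RS4;11 and SEM were over 1 apart in 6 genes, AHR, HDAC9, RAPGEF5, OSBPL3, DAGLB and TNRC18. NALM6 and REH were over 1 apart in 6 genes, ADAP1, FSCN1, GPR146, CYTH3, HDAC9 and PRKAR1B. Only HDAC9 was in both sets. OSBPL3, an oxysterol-binding protein gene, was at 8.14 (RS4;11), 7.03 (SEM), 7.93 (NALM6) and 8.04 (REH), low in SEM alone.

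**Figure D3:**
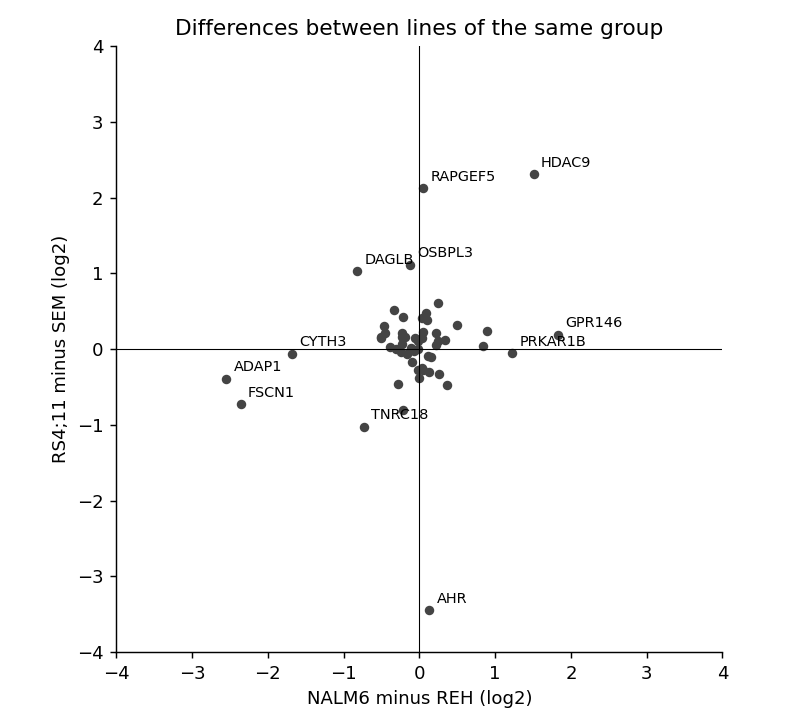
RS4;11 minus SEM (vertical axis) against NALM6 minus REH (horizontal axis), both on the log2 scale, for the 55 measured genes. Most points lie within 0.5 of 0 on both axes, and the named genes are those over 1 on either.

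The lower levels were not limited to the listed genes. Between PRKAR1B and SNX10 lie 75 other measured genes, most of them dim, and their median difference was -0.08. Over the 29 of them above the median level of all genes it was -0.58 (RS4;11 -0.48, SEM -0.78), and 20 of the 29 were lower in both translocation lines (69.0%, against 23.3% of all genes above the median level). Over the 46 at or below that level it was -0.05. The split is by the mean over all lines, and FAM221A, at 5.55 in RS4;11 and 6.64 in SEM, passed through NALM6 and REH alone. Among the brighter ones the lowest differences were those of the cell polarity gene PALS2 (5.28, 8.74, 10.12 and 9.97 in the order of lines used above), FAM221A (-2.41, SE 0.44) and GLCCI1 (-2.17, SE 0.35), and the highest those of GSDME, the pore-forming gasdermin E gene (2.85, SE 0.67), POLR1F (0.29) and LINC02983 (0.19). IGF2BP3, an oncofetal RNA-binding protein gene of the interval, was at 9.86, 10.03, 10.29 and 10.06 (-0.23, SE 0.14). The nearest measured genes outside were PDGFA at the outer end, at 5.65, 5.89, 6.70 and 6.98, and the noncoding LINC02981 at the inner end, at 6.50, 6.62, 6.15 and 6.61. Further inward, HOXA2 was at 7.72, 7.30, 5.32 and 8.19, low in NALM6 alone, and HOXA9 and HOXA10 are not analysed here.

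The pattern continued inward through most of the short arm and was not seen on the long arm. The arms were parted at the widest gap between neighbouring gene starts of chromosome 7, between ZNF716 and ARAFP2. The 66 remaining short-arm genes above the median level had a median difference of -0.69 (RS4;11 -0.70, SEM -0.73), close to the -0.67 of the 50 members above it. Of these 66, 46 were lower in both translocation lines (69.7%) and 1 was higher (1.52%). Some of the 66, such as NOD1 (6.05 in RS4;11, 6.23 in SEM) and BBS9 (6.03 and 5.86), passed the level through NALM6 and REH alone. Over all genes above the median level these shares were 23.3% and 23.9%. Over 282 such genes of the long arm the median was 0.04 (RS4;11 0.14, SEM -0.09). Of these 282, 35 were lower in both lines (12.4%, against the same 23.3%). The longest unbroken run of short-arm genes above the median level with both translocation lines below both others held 22 genes, from RNF216 to BZW2, and the longest on the long arm held 3. Over the 22 other chromosomes, with chromosome Y left out, the median for such genes lay between -0.30 (chromosome 13) and 0.11 (chromosome 8). The value for chromosome 13 came from SEM (-0.62) and not from RS4;11 (-0.05).

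**Figure D4:**
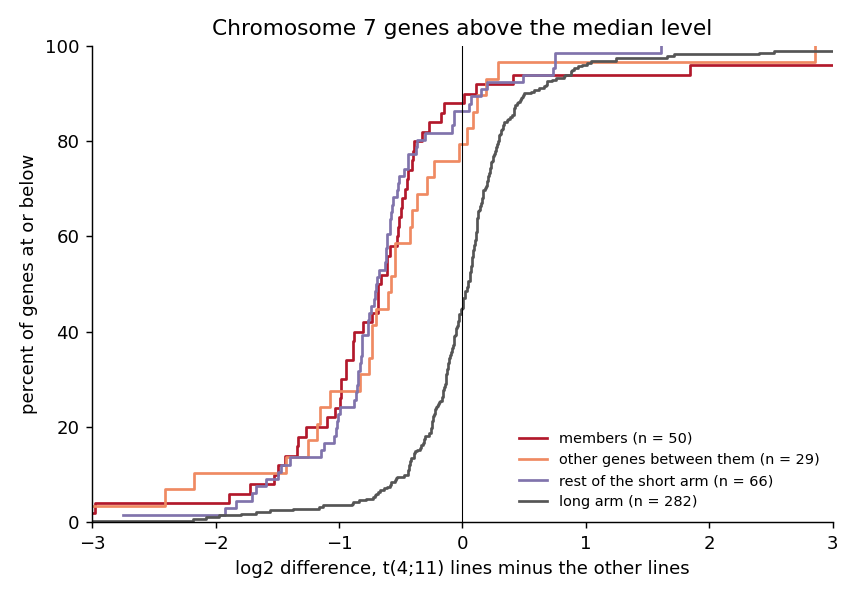
Percent of genes at or below each difference between the groups (log2 scale), for genes of chromosome 7 above the median level in 4 sets. The curves of the members, of the other genes between them and of the rest of the short arm lie together around medians of -0.67, -0.58 and -0.69, that of the long arm has its median at 0.04, and genes beyond 3 in size, such as SNX10, are off the plot.

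In 7 consecutive windows of 20 or 21 genes above the median level along the short arm, the median lay between -0.92 and -0.48 in RS4;11 and between -1.06 and -0.41 in SEM. In 14 windows of the long arm it lay between -0.10 and 0.40 in RS4;11, with 11 above 0, and between -0.40 and 0.24 in SEM, with 5 above 0. The window from ZNF12 to KLHL7, which holds 14 of the members, was the lowest for SEM at -1.06, and RS4;11 stood there at -0.91.

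Near the centromere the lines were also set apart in ranges chosen after their values were seen, again over genes above the median level alone. Over 12 such genes from PURB to VOPP1 the median was -0.60 in RS4;11 and -0.83 in SEM. Over the last 8 such genes of the short arm, from ZNF713 to CHCHD2, it was -0.49 in RS4;11 but 0.21 in SEM. SEM was below both comparison lines in 0 of the 8 and RS4;11 in 6, without a share over all genes. The comparison lines were themselves apart there, with a median NALM6 minus REH of 0.45, against 0.16 over the 12 genes before. SUMF2, a sulfatase-modifying factor gene of this stretch, was at 10.03 (RS4;11), 11.13 (SEM), 11.11 (NALM6) and 10.79 (REH). Over the first 21 such genes of the long arm, from ZNF680 to STAG3L4, RS4;11 was at 0.25 and SEM at -0.36. ZNF680, a zinc finger gene, was at 10.36 in RS4;11 and 8.996 in SEM, with 9.76 and 9.86 in the comparison lines. Single genes went against these medians, and where the level changes was not tested. RS4;11 was above the mean of the comparison lines in IKZF1 (0.39), GRB10 (0.18) and LANCL2 (0.36) before VOPP1 and in SNORA15 (0.21) after it. SEM was above that mean before VOPP1 in GRB10 (1.30) and LANCL2 (0.03).

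**Figure D5:**
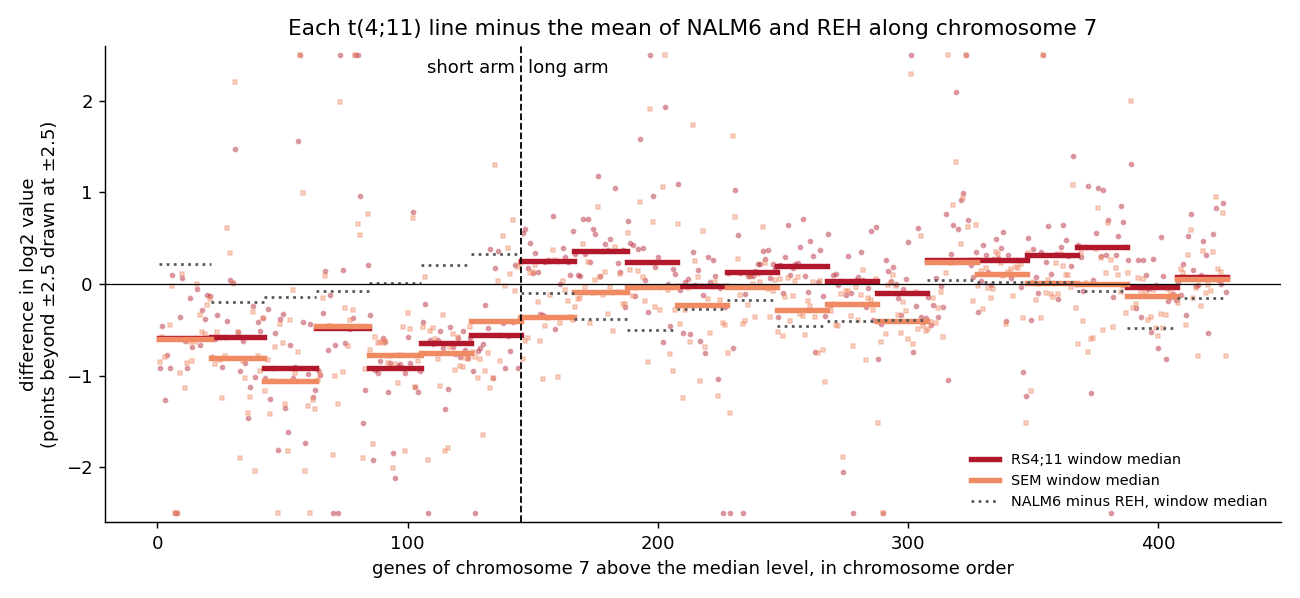
Log2 level of RS4;11 and of SEM minus the mean of NALM6 and REH for genes of chromosome 7 above the median level, in chromosome order, with the median of each window of 20 or 21 genes as a thick line and that of NALM6 minus REH as a dotted line. The dashed line marks the widest gap between gene starts, and the window medians of both translocation lines are below -0.4 to its left and between -0.40 and 0.40 to its right.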

How the data were processed

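Total RNA of RS4;11, SEM, NALM6 and REH was hybridised to 1 Affymetrix array each. The authors deposited log2 values; RMA and Partek are named per the submitters' processing notes, with no version or role, and the log2 scale was inferred from the values. RMA gives no detection call. A quantile step, usual in RMA, would even out array-wide differences, but its use here is not stated. The medians over probe sets still ran from 6.40 (NALM6) to 6.46 (SEM). Signal over background is unknown, so that folds against dim genes are compressed. The number of arrays limits precision. No p-value is given for the region.

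Of 32968 probe sets, 19310 had 1 gene symbol in the platform annotation, 1752 several and 11906 none listed; the first were named, through Entrez IDs of the RefSeq table of GRCh38.p14 (19279 matched), which also gave gene order and type. A gene was represented by its probe set with the highest mean. Promoter coordinates are those of the RefSeq table; none is given for probe sets, whose annotation build is not given in the sources used here. SEs come from limma 3.58.1 (lmFit and eBayes, R 4.3.3, no covariates), a fit checked on simulated data; other values come from Python 3.11.15 with pandas 2.3.3. The members, role groups and regions were chosen with earlier results of these data known. Genes named are the members, with the 2 lowest and 2 highest of each role group and those that differ most within a group in full, the 3 lowest and 3 highest brighter neighbours, IGF2BP3, and the next genes outside; HOXA2 and the genes named near the centromere were chosen after their values were seen. Alternatives were other scalings, probe set and gene choices, and leaving out each line.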

Additional observations from a re-analysis of the deposited data

How the results depend on the processing

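Of 104 alternative values for 11 results, 87 moved by less than the spread between pairs of lines (counts by less than 1.5 times). The other 17 moved further, and none changed sign beyond that spread. Some of the 87 could not move. For RS4;11 minus SEM, NALM6 minus REH and each translocation line's median, some of the lines left out were not used by the result. All members are protein-coding, so that this restriction left their medians unchanged. The within-group medians were judged by the spread between pairs of lines from different groups. The median over the members was -0.74 to -0.58 when each line was left out (-0.74 without RS4;11, -0.58 without NALM6), and 44 to 45 members were then lower in the translocation lines and 23 to 25 parted by at least 1.5-fold, since fewer lines had to be parted. The RS4;11 median was -0.64 after repeated quantile normalization, -0.67 with arrays centred on their medians and -0.64 to -0.62 when a line was left out, and that of SEM -0.75 to -0.67. For the other genes between the outermost members the median was -0.13 after repeated quantile normalization, -0.14 with centred arrays, -0.14 for protein-coding genes, -0.58 for genes above the median level and -0.15 to -0.065 without a line. For the rest of the short arm it was -0.20, -0.21, -0.21, -0.69 and -0.23 to -0.11 in the same order. The long-arm median of 0.02 ran from -0.04 to 0.06 without a line, so that its sign is not settled. No paired analysis was possible because each sample is a different line, and no line of one group has a partner in the other. With 1 array per line, culture and array differences cannot be told apart from differences between lines.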
